A study of Mus musculus with 36 samples.

Results

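The transcripts described here are 10 genes of MHC class I presentation and antigen processing, chosen by name and immunoproteasome subunits included, out of 20817 genes in the deposited expression table. All 10 were found in the table, where mouse symbols are written in capitals (H2-K1, H2-D1, B2M, TAP1, TAP2, TAPBP, NLRC5, PSMB8, PSMB9 and PSMB10), and all 10 passed the filter on low counts. RNA-seq was run on CD4+ T cells from C57BL/6 wild-type mice. Naive CD4+CD44-CD62L+CD25- splenic cells were activated with plate-bound anti-CD3 and anti-CD28 antibodies and cultured in 1 of 3 cytokine mixes. Pathogenic Th17 cells (Th17p) received 25 ng/ml IL-6, 20 ng/ml IL-1b and 20 ng/ml IL-23. Non-pathogenic Th17 cells (Th17n) received 25 ng/ml IL-6 and 2 ng/ml TGF-beta 1. Induced regulatory T cells (iTreg) received 2 ng/ml TGF-beta 1 alone. Each culture was kept with vehicle or with DFMO at 100 µM. DFMO, difluoromethylornithine, blocks the polyamine-making enzyme ornithine decarboxylase. Live cells were sorted after 68 hours. Every group was a bulk culture labelled by its cytokine mix, with no sort for a lineage marker stated, from the same 3 mice (animals 1 to 3), which gave 18 libraries in 6 groups of 3.

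MHC class I molecules display peptides from inside the cell to CD8 T cells. A heavy chain, such as H2-K1 or H2-D1 in mice, pairs with the light chain beta-2 microglobulin (B2m). Peptides are cut by the proteasome, in which the inducible subunits Psmb8, Psmb9 and Psmb10 can replace the constitutive subunits Psmb5, Psmb6 and Psmb7. They are pumped into the endoplasmic reticulum by the transporter Tap1-Tap2 and loaded with the help of tapasin (Tapbp). Nlrc5 is a transcriptional activator of this gene set, and interferon-gamma is a classical inducer of it. In CD4 T cells these genes are active as in most nucleated cells.

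Of the 10 genes, 7 lie in the MHC region of chromosome 17 in the GRCm38 annotation (GENCODE M21). Tapbp is at 33915899-33929292 and H2-K1 at 33996017-34000347. Psmb9 (34181987-34187764), Tap1 (34187553-34197225), Psmb8 (34197721-34201454) and Tap2 (34203527-34216321) follow one another, and H2-D1 is at 35262730-35267499. B2m is on chromosome 2 at 122147686-122153083. Nlrc5 (94434356-94527272) and Psmb10 (105935735-105938444) are on chromosome 8. The annotated ends of Psmb9 and Tap1 overlap by 212 bases on opposite strands, and the use of strand in counting is not given in the sources used here, so reads from that stretch cannot be assigned to 1 gene. B2m lies inside the opposite-strand gene Patl2, which was at 0.175 TPM (abundance scaled by transcript length and library total) or less. Tapbp overlaps Zbtb22, at 4.12 TPM or less, by 3422 bases. Opposite-strand genes absent from the expression table overlap Psmb10 by 2710 bases, Psmb8 by 2139, Tapbp by 1207 and Nlrc5 by 748. Those over Tap2 cover 1923 and 3148 bases. The levels of these absent genes are not known.

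The proximal promoters are shown because H2-K1, H2-D1 and B2m were all lower with DFMO in each lineage, as given below. Between lineages they did not always move together. Under vehicle B2m was at 76.5% of its Th17p level in Th17n cells, and H2-K1 and H2-D1 at 101.1% and 98.8%. RefSeq promoter windows (GRCm38.p6, 250 bases before a start) were matched by symbol for 8 of the 10 genes, in 9 windows. Nlrc5 and Tap2 are named only. H2-K1 and B2m are printed as the 180 bases before their first annotated exon. The H2-D1 window lies inside the annotated gene, in an untranslated part of a transcript with an upstream start, so only 2 short stretches of it are printed, at chr17:35262923-35262951 and chr17:35262993-35263022 on the plus strand. The H2-K1 stretch is chr17:34000348-34000527 on the minus strand, and that of B2m is chr2:122147506-122147685 on the plus strand. Capitals mark the kappaB motif GGGGATTCC, the interferon regulatory factor motif AANNGAAA on either strand, and a TGACG element followed 20 bases later by ATTGG, the reverse of a CCAAT box.
H2-K1: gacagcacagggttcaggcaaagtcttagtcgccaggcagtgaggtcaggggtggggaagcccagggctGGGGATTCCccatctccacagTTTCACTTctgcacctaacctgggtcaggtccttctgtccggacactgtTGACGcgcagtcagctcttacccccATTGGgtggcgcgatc
B2m: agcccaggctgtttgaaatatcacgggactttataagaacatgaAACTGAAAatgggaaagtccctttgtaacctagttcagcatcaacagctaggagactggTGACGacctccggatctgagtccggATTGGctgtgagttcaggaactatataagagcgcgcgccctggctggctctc
H2-D1 first stretch: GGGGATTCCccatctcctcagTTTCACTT
H2-D1 second stretch: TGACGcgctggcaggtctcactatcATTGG

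In both heavy chain genes the kappaB motif stands just before an interferon regulatory factor match on the other strand. B2m has the interferon regulatory factor match and no GGGGATTCC in its window. Only these exact letters were searched for on either strand, so looser kappaB sequences were not looked for. All 3 genes hold the spaced pair of TGACG and ATTGG. GGGGATTCC was found on either strand in 0.213% of 32851 RefSeq promoter windows, and AANNGAAA in 21.3%. TGACG alone was in 17.8% and CCAAT alone in 33.8%, and the spaced pair was in 0.0913%. The pair's spacing was set after these sequences had been read, and the motifs do not overlap in the printed stretches. Psmb9 and Tap1 have RefSeq starts 225 bases apart in opposite directions, so their windows share the bases between the starts. The windows hold 1 TGACG and 1 CCAAT match in either orientation. These lie in the shared stretch and are the same sites for both genes. A match describes letters in a window and is no evidence of binding.

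The libraries held 8307662 to 13986943 estimated counts each. Under vehicle Il17a and Foxp3, of 6 lineage markers, followed the labels. Il17a was at 345 to 531 CPM (library-size-scaled counts with TMM factors) in Th17p cells and 166 to 251 CPM in Th17n cells, and at 0 to 0.215 CPM in iTreg cells. Foxp3 was at 393 to 516 CPM in iTreg cells under vehicle, against 0 to 1.47 CPM in Th17p cells. Il2ra did not follow Foxp3, at 1030 to 1350 CPM in iTreg, 1450 to 1540 CPM in Th17p and 1770 to 2030 CPM in Th17n cells. Of the 6 markers, 1 was called higher and 5 lower in iTreg cells against each Th17 culture. With DFMO the Th17 cultures had other levels of several lineage markers. In Th17p cells Il17a was at 10.2 to 26 CPM, and Il17f at 117 to 188 CPM against 1350 to 1540 CPM under vehicle. In Th17n cells Il17a was at 41.8 to 211 CPM, which overlapped its vehicle range of 166 to 251 CPM. Il17f there was at 521 to 886 CPM against 595 to 855 CPM under vehicle. Foxp3 in Th17n cells was at 76.3 to 115 CPM against 11.1 to 11.8 CPM. Of the 6 lineage markers 5 were called lower with DFMO in Th17p cells, so these moved together with the class I genes there. In Th17n cells 1 was called higher and 1 lower, and in iTreg cells 1 higher and 0 lower. The part of the lineage markers in the results was not tested. Cd4 was at 243 CPM or more in every library. Of the 6 T cell markers found, 2 were called lower and 1 higher with DFMO in Th17p cells. In Th17n cells 4 were lower and 1 higher, and in iTreg cells 0 and 3. Over all genes tested, 17.1%, 23.7% and 19.2% were lower and 15.9%, 22.8% and 18.3% higher in Th17p, Th17n and iTreg cells. Cd4 itself averaged 383 CPM in vehicle and 262 CPM in DFMO Th17n cells. The list of 10 MHC class II and B cell markers summed to 161 to 222 CPM in the vehicle libraries and 43.8 to 87.7 CPM in the DFMO libraries, with 0 to 2 of the 10 at 0 in all libraries of a group. With DFMO the sum thus moved with the class I genes. Between lineages under vehicle the list was split, with 3 of 7 tested higher and 2 lower in iTreg than in Th17p cells. Against Th17n cells 3 were higher and 1 lower. H2-Ab1 made up most of the sum in vehicle Th17 cells, at 103 to 147 CPM, and averaged 28.4 CPM in vehicle iTreg cells. In DFMO Th17 cells it was at 9.22 to 23.7 CPM. The B cell genes Ms4a1, Cd79a and Pax5 were each at 2.2 CPM or less in every library, and Cd79b reached 22.7 CPM in iTreg cells under DFMO. Of 5 CD8 T and NK cell markers the sum was 7.95 to 28.9 CPM, most of it Cd8b1, which averaged 15.8 to 19.3 CPM in the vehicle groups and 9.34 to 16.8 CPM in the DFMO groups. The part of these markers in the results was not tested. The 6 myeloid markers found summed to at most 1.98 CPM and the 5 erythroid markers to at most 0.643 CPM.

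Between genes, levels were compared as TPM, which is per transcript length. B2m was the most abundant of the 10, at 1431 to 3117 TPM over the 18 libraries. H2-K1 ranged from 567.9 to 1300.0 TPM and H2-D1 from 476.4 to 1262 TPM, and these ranges overlapped. Psmb8 was at 376.8 to 923.2 TPM, above Psmb9 at 63.1 to 381.8 TPM and Psmb10 at 16.3 to 64.27 TPM. Tap1 was at 63.09 to 210.8 TPM, Tapbp at 42.26 to 170.1 TPM and Tap2 at 45.26 to 105.2 TPM. Nlrc5, the regulator, was the least abundant, at 2.79 to 16.89 TPM. H2-K1 and H2-D1 together made up 65.05 to 78.48% of the TPM on the 24 class I H2 genes in the table.

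Across the 6 groups, iTreg cells under vehicle had the highest mean CPM for 10 of the 10 genes. The lowest mean was in Th17n cells under DFMO for 7 genes and in Th17p cells under DFMO for 3 (H2-K1, H2-D1 and Tapbp). Within iTreg cells under vehicle, animal 3 was the highest library for 9 of the 10 genes, and within Th17p cells under vehicle, animal 2 was the lowest for 9 of the 10. The plot of CPM by library shows these groups.

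**Figure D1:**
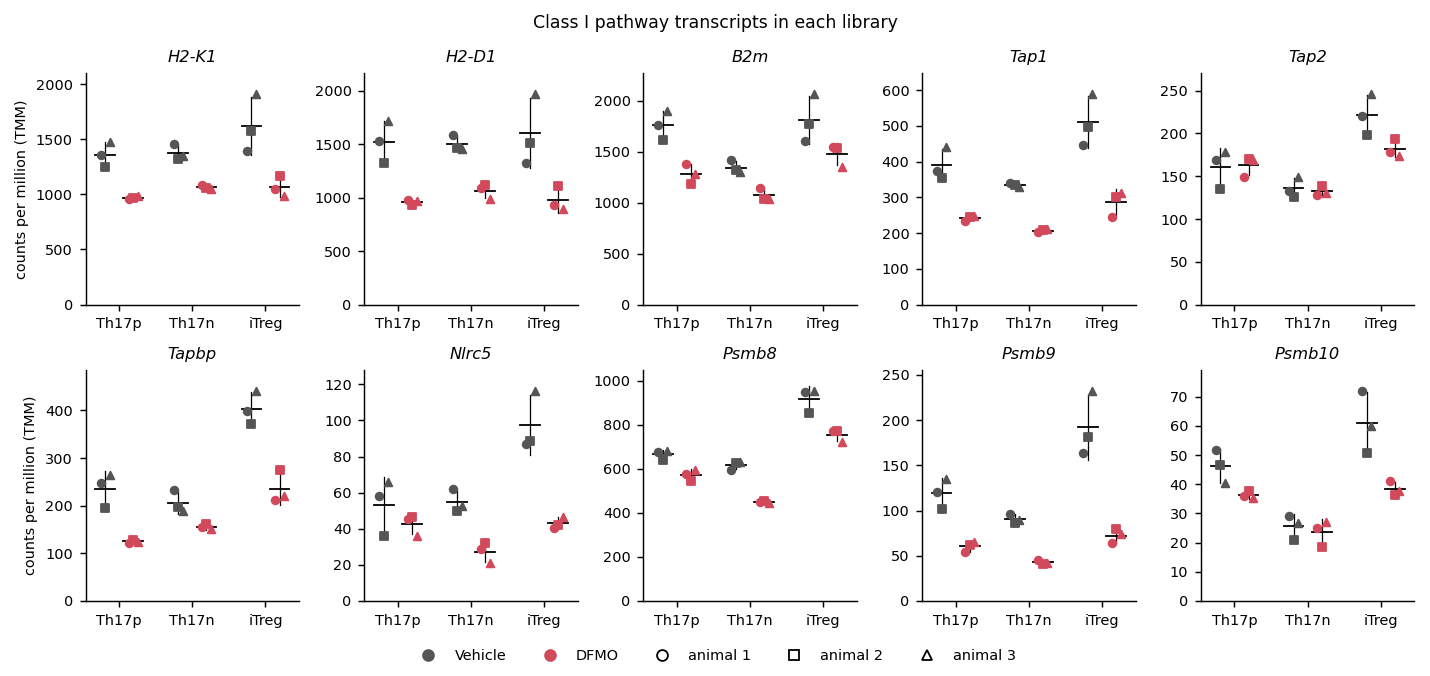
CPM (TMM-scaled, linear axis from 0) of the 10 genes in each of the 18 libraries, by lineage and treatment. Each marker is 1 library with its shape giving the animal, the horizontal bar is the group mean and the vertical line ± 1 SD (n = 3). For H2-K1, H2-D1, B2m, Tap1, Tapbp, Psmb8 and Psmb9 the DFMO points lie below the vehicle points in each lineage.

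The first comparison asked what DFMO did to these transcripts in each lineage. Nothing rose. DFMO lowered 7 of the 10 genes in Th17p cultures, 8 of 10 in Th17n and 10 of 10 in iTreg, by edgeR's quasi-likelihood test with a Benjamini-Hochberg adjusted p under 0.05 over 11526 genes. Over all genes tested, 17.1% were lower in Th17p cultures, 23.7% in Th17n and 19.2% in iTreg, and 15.9%, 22.8% and 18.3% were higher. The median log2 fold change of the 10 genes was -0.47 for Th17p, -0.43 for Th17n and -0.69 for iTreg, beside 0.0, -0.02 and -0.04 over all genes tested. H2-K1, H2-D1, B2m, Tap1, Tapbp, Psmb8 and Psmb9, 7 genes, were lower in all 3 lineages, Nlrc5 in 2, and Tap2 and Psmb10 in iTreg cells only by this test. In bulk RNA, a lower level in every cell and fewer expressing cells cannot be told apart.

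Both classical heavy chains were lower with DFMO in each lineage. H2-K1 was at 1359, 1244 and 1476 CPM in the vehicle Th17p libraries of animals 1, 2 and 3 and at 954.9, 967.6 and 980.4 CPM with DFMO. The groups did not overlap, and H2-K1 with DFMO was at 71.2% of vehicle (log2 fold change -0.49, SE 0.09, adjusted p = 3.1e-04 by edgeR). In Th17n cells H2-K1 went from 1453, 1323 and 1348 CPM to 1081, 1053 and 1052 CPM, which was 77.3% of vehicle (adjusted p = 0.0021, edgeR). iTreg cells had 1389, 1570 and 1907 CPM under vehicle and 1046, 1162 and 984.8 CPM with DFMO, or 65.6% of vehicle (adjusted p = 2.3e-05, edgeR). Again no DFMO library reached the lowest vehicle library of its lineage.

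H2-D1, the second classical heavy chain, was at 1536, 1323 and 1714 CPM in Th17p cells under vehicle and at 976.9, 931.7 and 973.1 CPM with DFMO (63.0% of vehicle, log2 fold change -0.67, SE 0.12). In Th17n cells the values were 1585, 1470 and 1461 CPM against 1088, 1120 and 988.4 CPM (70.8%), and in iTreg cells 1330, 1511 and 1969 CPM against 931.7, 1111 and 890.7 CPM (61.0%). The 2 treatments did not overlap in any lineage, and the adjusted p was 3.0e-04, 0.002 and 1.2e-04 in Th17p, Th17n and iTreg cells (edgeR). Heavy chain genes share long stretches of near-identical sequence, so how reads were split among H2-K1, H2-D1 and the Q and T genes is uncertain. The ratio of H2-K1 to H2-D1 TPM stayed between 0.9153 and 1.192 over the 18 libraries. With the counts of H2-K1 and H2-D1 summed before the fit, the log2 fold change with DFMO was -0.59 for Th17p, -0.44 for Th17n and -0.67 for iTreg cultures, and with all class I H2 genes summed it was -0.65, -0.54 and -0.74. Each of these 6 values had an adjusted p of 0.001 or less.

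B2m, the shared light chain, kept a larger share of its vehicle level than either heavy chain in each lineage, a difference that was not tested. Its values in Th17p cells were 1760, 1613 and 1900 CPM under vehicle and 1379, 1183 and 1282 CPM with DFMO, or 72.9% of vehicle (adjusted p = 5.0e-04, edgeR). Th17n cells had 1414, 1319 and 1299 CPM against 1148, 1032 and 1035 CPM (79.7%, adjusted p = 0.0049), and iTreg cells 1602, 1769 and 2063 CPM against 1542, 1538 and 1353 CPM (81.6%, adjusted p = 0.013). The closest iTreg libraries of the 2 treatments were at 1602 and 1542 CPM. Without animal 3 the iTreg log2 fold change of B2m was -0.13 (adjusted p = 0.37) in place of -0.29, and without animal 2 its adjusted p was 0.055. It was -0.46 without scaling factors and -0.51 on log2(TPM + 1). The Th17n call was also lost without animal 2 (adjusted p = 0.063).

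Of the 2 chains of the peptide transporter, Tap1 was lower in all 3 lineages and Tap2 in iTreg cells. Tap1 was at 375.0, 354.8 and 440.4 CPM in Th17p cells under vehicle and at 232.6, 244.6 and 246.5 CPM with DFMO. In Th17n cells it went from 339.8, 334.9 and 327.6 CPM to 202.0, 208.7 and 210.1 CPM, and in iTreg cells from 447.0, 495.7 and 588.3 CPM to 244.9, 300.7 and 312.6 CPM. No groups overlapped, and Tap1 with DFMO stood at 61.8%, 62.0% and 56.1% of vehicle, with adjusted p of 1.9e-05, 8.0e-06 and 1.3e-06 (edgeR). Tap2, by contrast, was at 169.2, 135.4 and 178.2 CPM under vehicle in Th17p cells and 149.2, 170.2 and 169.2 CPM with DFMO, and the groups overlapped (log2 fold change 0.02, SE 0.10, adjusted p = 0.92). Th17n cells gave 133.2, 125.6 and 149.0 CPM against 128.6, 138.6 and 130.2 CPM (log2 fold change -0.04, SE 0.10, adjusted p = 0.79). Only in iTreg cells did Tap2 pass the test, at 219.9, 198.1 and 245.8 CPM against 178.3, 193.0 and 174.2 CPM (82.2% of vehicle, adjusted p = 0.031). The log2 fold change of -0.28 was -0.45 without scaling factors and -0.49 on log2(TPM + 1). That call was lost without animal 1 (adjusted p = 0.17), without animal 3 (log2 fold change -0.17, adjusted p = 0.32), with the iTreg groups fitted alone (adjusted p = 0.053) and on the first sequencing run alone (adjusted p = 0.093). The difference between the Tap2 changes in Th17p and iTreg cells was 0.30 on the log2 scale (SE 0.14, adjusted p = 0.22), so it was not shown that the lineages differed.

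Tapbp, the chaperone that holds class I molecules at the transporter, was lower in each lineage. In Th17p cells it went from 247.5, 194.8 and 264.8 CPM to 122.2, 128.9 and 123.9 CPM, or 53.0% of vehicle (log2 fold change -0.91, SE 0.11, adjusted p = 3.6e-06, edgeR). Th17n cells went from 232.7, 197.5 and 188.4 CPM to 155.3, 162.3 and 150.1 CPM (75.7%, adjusted p = 0.0055), a call lost without animal 1 (adjusted p = 0.14) and in limma on log2(TPM + 1) (adjusted p = 0.074). In iTreg cells Tapbp went from 397.9, 371.5 and 441.5 CPM to 211.5, 274.6 and 220.2 CPM (58.3%, adjusted p = 1.3e-05). The vehicle and DFMO libraries were apart in every lineage, with the narrowest gap in Th17n cells.

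Among the 3 inducible proteasome subunits, Psmb9 had the largest decrease of the 10 genes in each lineage. Its levels in Th17p cells were 120.9, 101.5 and 135.0 CPM under vehicle and 53.97, 62.23 and 65.55 CPM with DFMO, or 50.9% of vehicle (log2 fold change -0.97, SE 0.13, adjusted p = 6.1e-06, edgeR). In Th17n cells they were 96.69, 86.35 and 89.86 CPM against 45.64, 40.88 and 41.95 CPM (47.1%, log2 fold change -1.09, SE 0.13, adjusted p = 6.4e-07). In iTreg cells 163.3, 181.1 and 232.5 CPM became 63.86, 79.44 and 73.78 CPM (37.7%, log2 fold change -1.41, SE 0.13, adjusted p = 3.4e-08). Every DFMO library was thus well under every vehicle library of the same lineage.

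Psmb8, the most abundant of the inducible subunits, was lower in each lineage too. Vehicle Th17p cells had 676.5, 642.3 and 681.0 CPM of Psmb8 and DFMO cells 575.8, 546.2 and 595.8 CPM (85.9%, log2 fold change -0.22, SE 0.06, adjusted p = 0.012, edgeR). That call was lost when any 1 of the 3 animals was left out (adjusted p from 0.075 to 0.082) and in limma on log2(TPM + 1) (adjusted p = 0.065). Th17n cells went from 597.0, 626.9 and 631.9 CPM to 448.2, 453.5 and 445.2 CPM (72.6%, adjusted p = 5.0e-06). In iTreg cells Psmb8 was at 947.4, 852.3 and 955.6 CPM against 770.8, 771.7 and 720.1 CPM (82.1%, adjusted p = 0.0013, and 0.081 without animal 3), and its log2 fold change of -0.28 was -0.45 without scaling factors and -0.50 on log2(TPM + 1). Psmb10 was lower in iTreg cells, at 72.09, 50.84 and 59.99 CPM against 41.12, 36.44 and 37.54 CPM (62.9%, adjusted p = 0.0015). In Th17p cells it was at 51.74, 46.72 and 40.33 CPM against 35.87, 37.82 and 35.16 CPM (adjusted p = 0.086), and with the Th17p groups fitted alone the adjusted p was 0.035. Th17n cells had overlapping Psmb10 values of 29.06, 20.99 and 26.89 CPM against 24.89, 18.54 and 27.18 CPM (log2 fold change -0.12, SE 0.16, adjusted p = 0.55).

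Nlrc5 was lower with DFMO in the 2 lineages cultured with TGF-beta 1. In Th17n cells it went from 61.90, 49.73 and 52.72 CPM to 28.58, 32.14 and 21.20 CPM, or 49.9% of vehicle (log2 fold change -1.0, SE 0.19, adjusted p = 3.6e-04, edgeR). In iTreg cells it went from 86.72, 88.72 and 116.5 CPM to 40.25, 41.92 and 46.71 CPM, or 44.2% (log2 fold change -1.18, SE 0.19, adjusted p = 8.7e-05). Th17p cells had 57.91, 36.03 and 65.68 CPM under vehicle and 45.25, 46.28 and 36.09 CPM with DFMO, and these groups overlapped (log2 fold change -0.33, SE 0.19, adjusted p = 0.2). The vehicle library of animal 2 was the low one. Without animal 2 the Th17p log2 fold change of Nlrc5 was -0.61 with an adjusted p of 0.034.

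**Figure D2:**
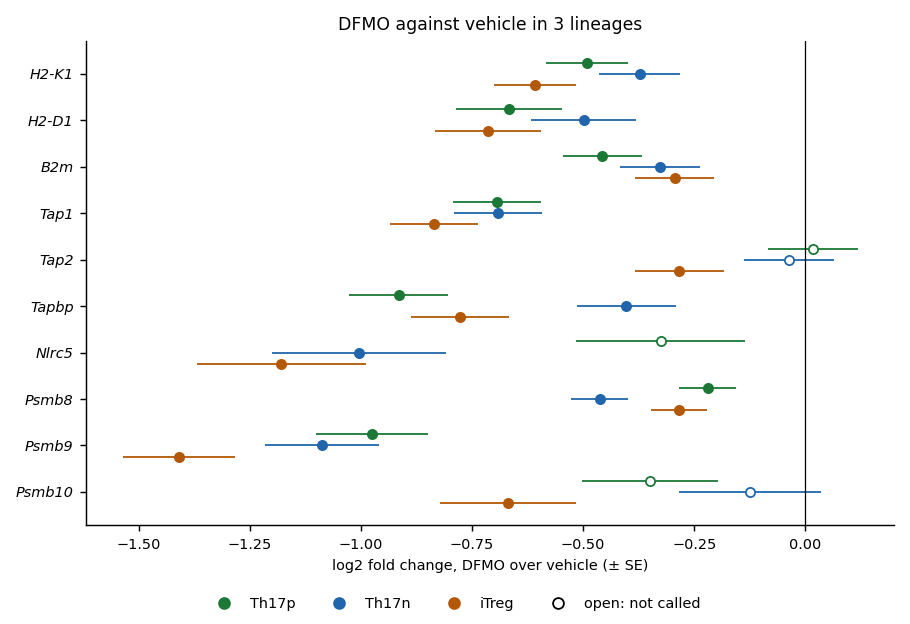
Log2 fold change of DFMO over vehicle (x axis, linear) for the 10 genes in Th17p, Th17n and iTreg cells, 3 libraries against 3 in each. Bars are ± SE derived from the edgeR F statistic. Filled points have an adjusted p under 0.05 and open points do not. The filled points, 7 for Th17p, 8 for Th17n and 10 for iTreg, lie left of 0, with Psmb9 and Nlrc5 farthest left in Th17n and iTreg cells.

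Whether the DFMO effect itself differed between lineages was tested as a difference of the 2 effects. None of the 10 genes passed in any of the 3 pairs by edgeR, while over all genes tested 4.98% differed between Th17n and Th17p cells, 6.85% between Th17p and iTreg cells and 12.1% between Th17n and iTreg cells. The lowest adjusted p among the 10 genes was 0.064, 0.064 and 0.11 in these pairs. DESeq2 called 1 gene, 1 gene and 0 genes. Without scaling factors or on log2(TPM + 1), H2-K1, Tapbp and Psmb10 passed between Th17n and iTreg cells. The difference was widest for Nlrc5, whose change was 0.85 smaller in Th17p than in iTreg cells on the log2 scale (SE 0.27, adjusted p = 0.064 by edgeR, 0.035 by DESeq2). The Tapbp effect in Th17n minus that in Th17p cells was 0.51 (SE 0.16, adjusted p = 0.064 by edgeR, 0.036 by DESeq2). For Tap1 the change in Th17n minus that in Th17p was 0.0025 (SE 0.14).

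The second comparison asked how the lineages differed under vehicle. iTreg cells had more of most of the 10 transcripts than either Th17 culture, and H2-D1 did not pass the test in any pair. Against Th17p cells, 7 of the 10 genes were higher in iTreg cells, beside 14.5% of all genes tested, and against Th17n cells 9 of 10 were higher, beside 18.4%. Tapbp was at 403.6 ± 35.3 CPM (SD, n = 3) in iTreg, 235.7 ± 36.4 in Th17p and 206.2 ± 23.4 in Th17n cells. Its iTreg level was 171.2% of Th17p (adjusted p = 1.4e-05, edgeR) and 195.8% of Th17n (adjusted p = 7.9e-07). Nlrc5 was at 97.3 ± 16.7 CPM (SD, n = 3) in iTreg cells, 182.6% of Th17p (adjusted p = 0.0016) and 177.9% of Th17n (adjusted p = 0.0019), and the Th17 cultures did not pass the test against each other (log2 fold change 0.04, SE 0.19). Psmb9 was at 192.3 ± 35.9 CPM (SD, n = 3) in iTreg cells, 161.4% of Th17p and 211.6% of Th17n, with no overlap of libraries.

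Psmb8 in iTreg cells was at 137.8% of the Th17p and 148.5% of the Th17n level (adjusted p = 8.8e-06 and 5.3e-07, edgeR). Tap2 was at 137.5% and 162.8% and Tap1 at 130.8% and 152.8% of these, and the Tap1 call against Th17p cells was lost without animal 2 (adjusted p = 0.078). B2m in iTreg cells was higher than in Th17n cells (134.8%, adjusted p = 6.6e-04) and close to its Th17p level (103.0%, adjusted p = 0.76). H2-K1 was at 119.3% of Th17p (adjusted p = 0.039) and 118.0% of Th17n (adjusted p = 0.044), but its iTreg libraries overlapped both. Those 2 H2-K1 calls were lost without animal 2 (adjusted p = 0.19 and 0.13), without animal 3 (log2 fold change 0.18 and 0.09, adjusted p = 0.2 and 0.52) and with the compared groups fitted alone. The value of 0.24 against Th17n cells was 0.39 without animal 1 or without scaling factors and 0.41 on log2(TPM + 1), and that call was also lost on the first run alone (adjusted p = 0.075). Once H2-K1 and H2-D1 counts were summed, the log2 differences were 0.18 and 0.18 (adjusted p = 0.17 and 0.17). Psmb10 averaged 60.97 CPM in iTreg cells, 46.26 CPM in Th17p cultures and 25.64 CPM in Th17n. The iTreg level of Psmb10 was 237.6% of Th17n (adjusted p = 2.0e-06), and against Th17p its libraries overlapped (131.8%, adjusted p = 0.052 by edgeR, 0.026 with the animal as a block). Against Th17p cells Psmb10 was called higher in 6 of 12 alternatives.

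Between the Th17 cultures under vehicle, 3 genes were lower in Th17n than in Th17p cells, beside 10.5% of all genes tested. Psmb10 was at 55.5% of its Th17p level (log2 fold change -0.85, SE 0.16, adjusted p = 5.3e-04, edgeR). B2m was at 76.5% (adjusted p = 0.0036, and 0.055 without animal 3). Psmb9 was at 76.3% (adjusted p = 0.03), which was lost without any 1 of the 3 animals (adjusted p from 0.064 to 0.2). H2-K1 and H2-D1 were at 101.1% and 98.8%, with libraries that overlapped. The count of 3 was 5 without scaling factors, which added Tap1 and Tap2, and 1 without animal 3.

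Other lists of the pathway had other counts in this comparison. Of the 15 loading and trimming genes, 0 were higher and 9 lower in iTreg than in Th17p cells under vehicle, with a median log2 fold change of -0.37, beside 15.7% of all genes that were lower. Against Th17n cells 2 were higher and 4 lower, beside 18.9% lower. Calr was at 62.2% of its Th17p level (adjusted p = 2.3e-06, edgeR), Pdia3 at 68.8% (adjusted p = 4.7e-05) and Tapbpl at 74.0% (adjusted p = 0.0025, and 0.051 without animal 2). The other class I heavy chains were split, with 3 of 12 higher and 3 lower against Th17p cells. H2-T23 was at 71.9% (adjusted p = 3.9e-04) and H2-Q7 at 164.4% (adjusted p = 0.021, and 0.21 without animal 2 or 0.093 on the first run alone).

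**Figure D3:**
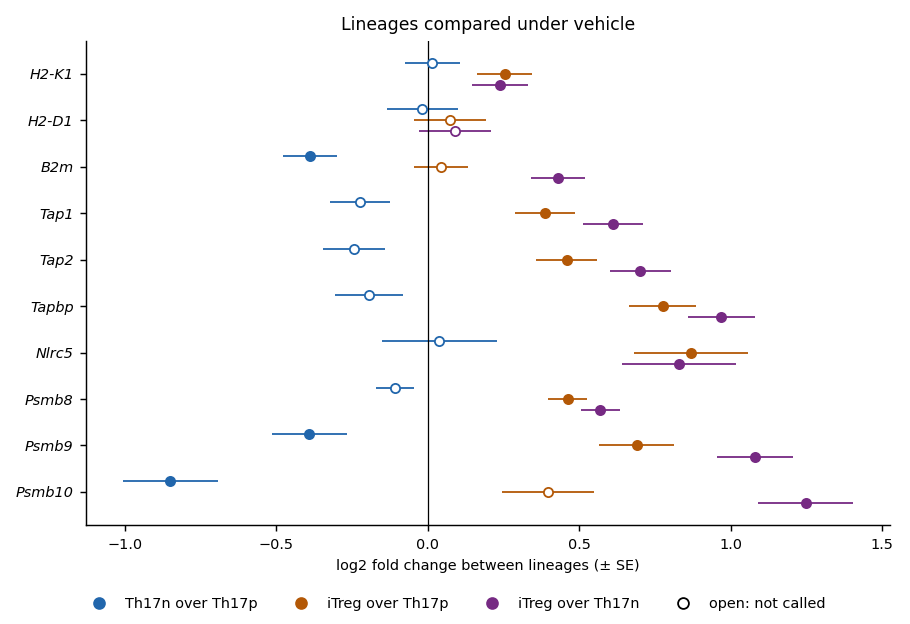
Log2 fold change between lineages under vehicle (x axis, linear) for the 10 genes, 3 libraries against 3 in each pair. Bars are ± SE derived from the edgeR F statistic. Filled points have an adjusted p under 0.05. The 3 filled Th17n over Th17p points (B2m, Psmb9 and Psmb10) lie below 0, and the filled iTreg points, 7 against Th17p and 9 against Th17n, lie above 0.

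Under DFMO the lineages were compared again, with the DFMO libraries that also enter the first comparison. iTreg cells were higher than Th17n cells for 8 of the 10 genes, beside 11.7% of all genes tested, with H2-K1 and H2-D1 the other two. Psmb8 was at 168.0% of Th17n (adjusted p = 1.7e-08, edgeR), Psmb9 at 169.3%, Psmb10 at 163.0% and Nlrc5 at 157.5% (adjusted p = 0.019). The Nlrc5 call was lost without animal 1 (adjusted p = 0.13), without animal 3 (log2 fold change 0.43 in place of 0.66, adjusted p = 0.12) and on the first run alone (adjusted p = 0.089). In limma on log2(TPM + 1) the count was 5, without Tap1, Tap2 and Nlrc5. Against Th17p cells only Tapbp (188.4%, adjusted p = 1.7e-06) and Psmb8 (131.7%, adjusted p = 4.7e-05, log2 fold change 0.40, and 0.22 on log2(TPM + 1)) were higher, 2 of the 10, beside 15.7% of all genes. With DESeq2 size factors B2m and Tap1 passed as well, 4 genes in all, and with the animal as a block Tap1 did (log2 fold change 0.24, adjusted p = 0.025). Tap1 was called in 6 and B2m in 3 of 12 alternatives. Nlrc5 in iTreg cells was at 101.1% of Th17p cells under DFMO, with overlapping libraries.

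Th17n cells under DFMO were lower than Th17p cells for 5 genes, beside 8.78% of all genes: Tap2, Nlrc5, Psmb8, Psmb9 and Psmb10. Psmb8 was at 78.4% (adjusted p = 4.2e-04, edgeR), Psmb9 at 70.5% (adjusted p = 0.0077) and Psmb10 at 64.8% (adjusted p = 0.0067). Nlrc5 was at 64.2% (adjusted p = 0.029). That call was lost in 4 of 12 alternatives, without animal 1 (adjusted p = 0.26), with no filter, on the first run alone and on log2(TPM + 1). Tap2 was at 81.3% (adjusted p = 0.047), a call lost in 7 of 12 alternatives. Those were each left-out animal (adjusted p = 0.11 to 0.2), DESeq2 (0.05) and its size factors in edgeR (0.053), the second run alone (0.11) and limma on log2(TPM + 1) (0.093). Psmb9 did not pass without animal 2 (adjusted p = 0.12) or animal 3 (0.055), nor Psmb10 without animal 2 (0.13). B2m was at 83.7% (adjusted p = 0.052, and 0.036 with the animal as a block), and it was called lower in 5 of 12 alternatives. H2-K1, H2-D1 and Tapbp had the higher values in Th17n cells without passing the test. Tapbp (adjusted p = 0.056, edgeR) was called higher in 5 of 12 alternatives. The count of 5 was 2 or 3 without 1 animal, and with the compared groups fitted alone 7 genes were lower and Tapbp was higher.

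Each inducible proteasome subunit takes the place of a constitutive one, so their TPM were set as a ratio in each library, with no test. Psmb8 over Psmb5 was 1.725, 1.632 and 1.821 in Th17p cells under vehicle and 1.298, 1.367 and 1.515 with DFMO. In Th17n cells it was 1.805, 2.076 and 1.880 against 0.9503, 1.045 and 0.9968, and in iTreg cells 2.173, 2.440 and 2.690 against 1.728, 1.520 and 1.623. The ratio was lower with DFMO in 3 of 3 animals in each lineage. Psmb9 over Psmb6 was 0.7099 to 1.014 in iTreg cells under vehicle and 0.2985 to 0.3973 with DFMO. In Th17p cells that ratio was 0.4357 to 0.6309 against 0.2219 to 0.2908, and in Th17n cells 0.4240 to 0.5098 against 0.1753 to 0.1980. Psmb10 over Psmb7 was 0.3298 or less in all 18 libraries, and its vehicle and DFMO ranges overlapped in Th17n cells (0.1084 to 0.1498 against 0.08335 to 0.1315).

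**Figure D4:**
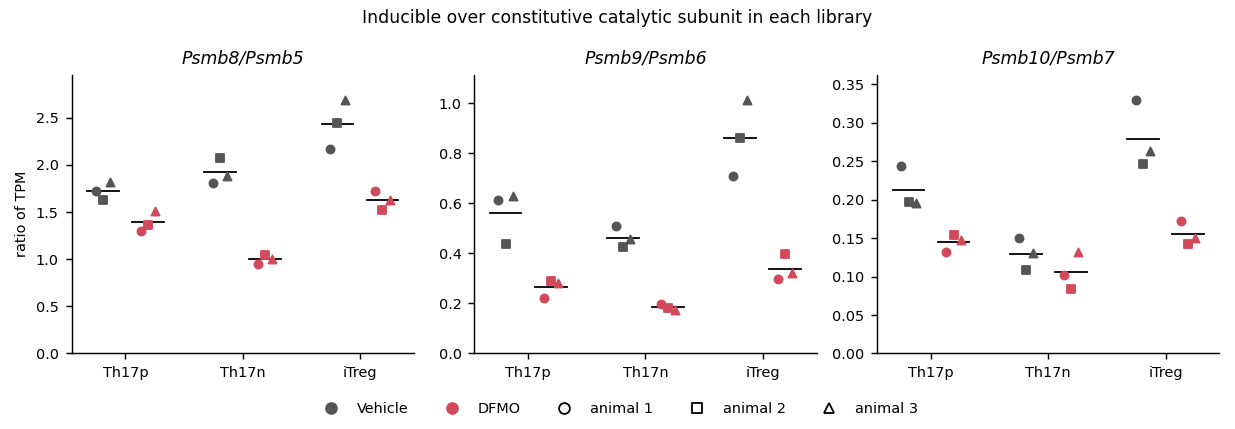
Ratio of TPM of each inducible catalytic subunit to its constitutive counterpart (linear axes from 0) in the 18 libraries, by lineage and treatment, with marker shape giving the animal and the bar the group mean (n = 3). DFMO points lie under the vehicle points of their lineage in all panels but Psmb10 over Psmb7 in Th17n cells.

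The constitutive subunits themselves were not lower in any lineage with TMM scaling, though Psmb6 in iTreg cells was called lower without scaling factors (-0.22, adjusted p = 0.021) and in limma on log2(TPM + 1) (-0.28, adjusted p = 0.015). Psmb5 was higher with DFMO in Th17n cells (log2 fold change 0.48, SE 0.09, adjusted p = 1.0e-04, edgeR) and in iTreg cells (0.30, adjusted p = 0.0092), and Psmb6 in Th17n cells (0.23, adjusted p = 0.017). The iTreg value of Psmb5 was 0.13 (adjusted p = 0.21) without scaling factors. Of the 9 proteasome activator and assembly genes, 4 were higher and 3 lower with DFMO in Th17p cultures, 4 and 3 in Th17n, and 3 and 3 in iTreg. The lower ones included both subunits of the PA28 activator. Psme1 had log2 fold changes of -0.60, -0.98 and -0.36 and Psme2 of -0.78, -0.68 and -0.65 in Th17p, Th17n and iTreg cells, each called. Pomp, the proteasome assembly chaperone, rose by 0.42 in Th17n and 0.63 in iTreg cells (adjusted p = 0.0011 and 3.1e-05), and its Th17p value of 0.25 (adjusted p = 0.047) did not pass with DESeq2 size factors (0.087).

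Beyond H2-K1 and H2-D1, 15 of 19 other class I heavy chain genes on the list were in the table and 12 were tested. With DFMO, 9 were lower in Th17p cultures, 9 in Th17n and 8 in iTreg, and 0 were higher, with median log2 fold changes of -0.86, -1.30 and -1.07. The Qa-2 gene H2-Q7 changed by -1.58, -1.85 and -2.05, H2-T22 by -0.75, -1.14 and -1.06, and H2-M3, which presents formylated peptides, by -0.77, -1.11 and -1.24. H2-T23, which encodes Qa-1, changed by -0.52, -0.35 and -0.52, and H2-Q4 by -0.68, -0.90 and -1.08. These 5 genes were called in each lineage. H2-Q6, nearly identical to H2-Q7 and thus uncertain, had -1.51, -1.75 and -1.80 with SE of 0.72, 0.76 and 0.69 and did not pass.

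Set beside the shares of all genes given above, the 15 genes of peptide loading and trimming had counts near them in Th17p cells. There 2 were higher and 2 lower, with 7 and 3 in Th17n and 6 and 1 in iTreg cells. The general chaperones of the endoplasmic reticulum were not among those that fell. Calr, calreticulin, had log2 fold changes of 0.09, 0.69 and 0.29, called in Th17n and iTreg cells, and Canx, calnexin, of 0.13, 0.29 and 0.29, also called in those lineages. In iTreg cells neither passed without scaling factors, at 0.13 for Calr and 0.12 for Canx (adjusted p = 0.22 and 0.23). Pdia3, the thiol oxidoreductase of the loading complex, was higher in Th17n cells (0.35, adjusted p = 0.0023). Erap1, the trimming peptidase, had 0.06, 0.19 and 0.31 and was not called. Tapbpl, a second peptide editor, was lower in Th17p (-0.40, adjusted p = 0.0052) and Th17n cells (-0.67, adjusted p = 2.0e-05) and was at -0.13 in iTreg cells (adjusted p = 0.34), where without scaling factors it was -0.30 (adjusted p = 0.027).

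Counts among the regulators of class I transcription were near the shares of all genes given above in Th17n cells. Of 19 tested, 2 were higher and 6 lower with DFMO in Th17p, 4 and 4 in Th17n, and 2 and 5 in iTreg cells. Irf1 was lower in iTreg cells (-1.17, SE 0.19, adjusted p = 1.4e-04), with -0.16 (adjusted p = 0.55) in Th17p cells and -0.48 in Th17n cells (adjusted p = 0.053, and 0.007 with the animal as a block). Irf2 was lower in Th17n cells (-0.68, adjusted p = 0.0029) and iTreg cells (-0.47, adjusted p = 0.035, and 0.4 without animal 3). Of the RFX factors that work with Nlrc5, Rfx5 was lower in Th17p cells (-0.76, adjusted p = 0.021, and 0.13 without animal 1 or 2), while Rfxap and Rfxank did not pass in any lineage. In iTreg cells Rfx5 was at -0.52 (adjusted p = 0.096, and 0.048 with the animal as a block). Ezh2, a histone methyltransferase of gene silencing, was higher in Th17p (0.89, adjusted p = 6.5e-05) and Th17n cells (0.51, adjusted p = 0.0048, and 0.14 without animal 1). Ciita, the class II counterpart of Nlrc5, was at most at 0.681 CPM in any library and was not tested.

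Of the 11 interferon signalling genes tested, 1 was higher and 4 lower in Th17p, 0 and 9 in Th17n, and 0 and 5 in iTreg cells. Ifngr1, the ligand-binding chain of the interferon-gamma receptor, was lower in all 3, at 50.2%, 47.8% and 50.7% of vehicle (adjusted p = 5.4e-04, 1.5e-04 and 4.4e-04, edgeR). Ifngr2, the second chain, was lower in Th17n cells (-0.37, adjusted p = 0.0066, and 0.061 without animal 1), and Socs1, an inhibitor of the pathway, did not pass (1.08, 0.72 and -0.40, with SE of 0.69 to 0.71). Ifng itself had 0 to 24 counts per library and was not tested. Of 35 interferon response genes, 29 were lower and 0 higher with DFMO in Th17p cultures, 19 and 3 in Th17n, and 27 and 0 in iTreg. Their median log2 fold changes were -1.39, -0.68 and -1.67. Over all genes tested, 17.1%, 23.7% and 19.2% were lower with DFMO and 15.9%, 22.8% and 18.3% higher. Under vehicle the interferon response list was lower in Th17n than in Th17p cells for 24 genes and higher for 0, beside 10.5% of all genes lower. In iTreg against Th17n cells 27 were higher and 0 lower, beside 18.4% higher. Against Th17p cells 7 were higher and 3 lower in iTreg cells, beside 14.5% and 15.7%.

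**Figure D5:**
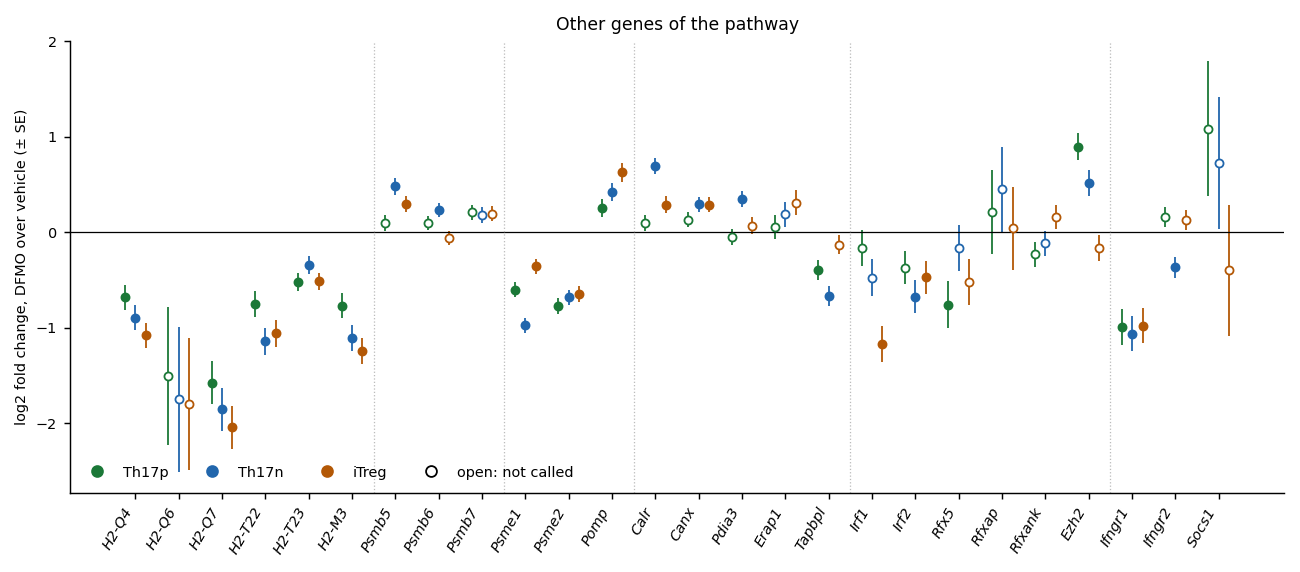
Log2 fold change of DFMO over vehicle (y axis, linear) in the 3 lineages for named genes of the pathway that are not among the 10. Bars are ± SE derived from the edgeR F statistic. Dotted lines stand between heavy chains, constitutive subunits, activator and assembly genes, loading genes, regulators and interferon signalling. Filled points have an adjusted p under 0.05. H2-Q7 is the lowest filled gene, at -1.58 to -2.05, while Pomp lies above 0 in all 3 lineages.

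As a description of which genes followed the 10 most closely, log2 CPM of 9302 tested genes was correlated over the 18 libraries with the mean of the standardised log2 CPM of the 10. These libraries share treatments, lineages and animals, so the values carry no test. The highest outside the 10 were Ube2l6 (Pearson r = 0.97), a conjugating enzyme for the interferon-induced modifier Isg15, Psme2 (0.93), Cmtr1 (0.93), Unc93b1 (0.93), H2-Q4 (0.92) and Isg20 (0.92). Ube2l6 with DFMO was at 27.4%, 32.8% and 15.6% of vehicle in Th17p, Th17n and iTreg cells. Among the 10 themselves, which form the mean, r ran from 0.75 for H2-D1 to 0.98 for Psmb9.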

How the data were processed

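Estimated counts and TPM were deposited by the authors as 2 gene tables with 36 columns each, for 18 libraries run on a NextSeq 2 times. The submitters' processing notes name Bowtie2, RSEM and GRCm38.p3, with versions, annotation and strand not given in the sources used here. Estimated counts of the deposited table, 12.17% of them not whole, were summed over the 2 runs and rounded. The deposited TPM values were averaged over runs, and the listed genes hold 72.4 to 80.5% of the TPM scale.

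edgeR 4.0.16 in R 4.3.3 (TMM, filterByExpr by group, robust quasi-likelihood F test, 1 fit over 6 groups) tested 11526 genes in 12 comparisons, with Benjamini-Hochberg adjustment in each and a call at 0.05, and CPM are TMM-scaled. DESeq2 1.42.0, limma 3.58.1 on log2(TPM + 1), scaling, filter, runs, left-out animals and summed heavy chains were the alternatives. The replicate number is the animal in every group, and deviations from group means correlated by a median of 0.121 for the same animal (45 pairs) and -0.063 for different animals (90 pairs). All 10 genes and a named set of pathway genes were reported whatever their result, and other lists as counts, except that single values of some items are not reported here. The genes, lists and tests were chosen with earlier results of these data known.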

Additional observations from a re-analysis of the deposited data

Results flagged for a closer look

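None of the 10 class I pathway genes showed a DFMO effect that differed between lineages by edgeR's test of the difference. Among the other named genes tested 6 did, and they are given here because they passed. Over all genes tested, 4.98% differed between Th17n and Th17p cells, 6.85% between Th17p and iTreg cells and 12.1% between Th17n and iTreg cells. These calls are thus described and not read as particular to the pathway. Calr had a DFMO effect 0.60 higher on the log2 scale in Th17n than in Th17p cells (adjusted p = 0.0064) and 0.40 higher than in iTreg cells (adjusted p = 0.034). For Ifngr2 the effect in Th17n cells differed by -0.53 from that in Th17p cells (adjusted p = 0.046) and by -0.50 from that in iTreg cells (adjusted p = 0.034). Psme1 in Th17n minus iTreg cells gave -0.62 (adjusted p = 0.0012) and Tapbpl -0.54 (adjusted p = 0.019). Irf1 in Th17p minus iTreg cells gave 1.01 (adjusted p = 0.033). Ezh2 differed by 1.06 between Th17p and iTreg cells (adjusted p = 0.0023) and by 0.68 between Th17n and iTreg cells (adjusted p = 0.028). Without animal 2 each of these 9 differences missed the threshold in edgeR, with 2 animals a group. Their values were then 0.58 and 0.50 for Calr, -0.60 and -0.55 for Ifngr2, -0.48 for Psme1, -0.49 for Tapbpl, 0.96 for Irf1, and 1.01 and 0.66 for Ezh2, in the order above. Without scaling factors both Ifngr2 differences (-0.48 and -0.32) and that of Tapbpl (-0.36) missed it too.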

How the results depend on the processing

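Over 12 comparisons and all alternatives, the 10 genes gave 1488 values. Of these 1392 kept their side of the threshold, 50 lost the call, 46 gained one and 0 called values reversed. Among uncalled values of these and the named genes, 245 changed sign. Those of the 10 genes are within the 1392, so not all of these kept their direction. The number of the 10 genes called ran from 6 to 7, 7 to 8 and 7 to 9 with 1 animal left out for DFMO in Th17p, Th17n and iTreg cells. Without 1 animal it ran from 1 to 2 for Th17n against Th17p under vehicle (5 without scaling factors) and from 2 to 3 under DFMO (8 with the compared groups alone). iTreg against Th17p cells under DFMO gave 4 with DESeq2, with its size factors in edgeR and with no filter, and iTreg against Th17n cells 5 in limma on TPM. For differences of DFMO effects, Th17n minus Th17p gave 1 with DESeq2, no scaling, no filter and the compared groups alone. Th17p minus iTreg gave 1 with DESeq2, no scaling, the second run and TPM, and 0 to 1 without 1 animal. Th17n minus iTreg gave 3 with no scaling and 3 on TPM.

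The animal as a replicate block left the counts at 7, 8 and 10 for DFMO in the 3 lineages and changed 3 calls of the 10 genes, named beside their results. In the blocked fit 1237 genes differed in Th17p minus iTreg effects in place of 789.

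Scaling shifted the median log2 fold change of all genes for DFMO in iTreg cells from -0.04 to -0.21 without factors (1284 higher and 3286 lower genes in place of 2112 and 2217) and to -0.19 on TPM (1024 and 3439). The medians for iTreg against Th17n under vehicle were 0.17 and 0.15 and those of Th17n minus iTreg effects 0.21 and 0.25. Without factors or on TPM, the percent of called genes that were higher was 34.4 or 26.6 for Th17n against Th17p under vehicle (main 47.4), 67.7 or 69.9 for iTreg against Th17n under vehicle (49.3), 66.0 or 64.0 for Th17n minus Th17p effects (52.8), 72.2 or 76.2 for Th17p minus iTreg (48.5) and 77.0 or 84.3 for Th17n minus iTreg (45.0). Without factors it was 59.5 for iTreg against Th17p under vehicle (47.9). On TPM it was 35, 24.9 and 31.5 for Th17n against Th17p, iTreg against Th17p and iTreg against Th17n under DFMO (47.8, 46.7 and 47.2).

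With 3 animals a group, leaving out 1 moved counts over all genes most: without animal 2, 3797 genes became 2416 for DFMO in Th17p and 4329 became 2488 in iTreg cells, and the 574, 789 and 1396 genes of the 3 effect differences became 27, 107 and 277. Without animal 1 the last 3 were 97, 386 and 388, and the first was 331 without animal 3. Without animal 1 or 2, Th17n against Th17p gave 1346 or 944 of 2303 under vehicle and 1253 or 898 of 1939 under DFMO, and iTreg against Th17n under vehicle 2784 or 2861 of 4301. Without animal 2, iTreg against Th17p gave 2289 of 3477 under vehicle and 2337 of 3864 under DFMO, and iTreg against Th17n under DFMO 1590 of 2848. On TPM, Th17p minus iTreg gave 1330 and Th17n minus iTreg 2563. By the lowest library, Psmb10 (192 counts), Nlrc5 (234) and Psmb9 (396) rest on the fewest reads of the 10.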
